A study of Bos taurus with 14 samples.

Results

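The insulin-like growth factors, their scavenger receptor and their binding proteins were followed across 14 bovine conceptuses collected on Day 15 of gestation. The 10 genes, IGF1, IGF2, IGF2R and IGFBP1 to IGFBP7, were taken as every probe set whose single gene symbol in the platform annotation named one of them. All 10 were measured, by 18 of the 24016 probe sets that remained after the array controls were left out. A conceptus is the embryo proper with its membranes, and each was hybridised whole to 1 Affymetrix bovine array. All conceptuses were Holstein, sired by a single bull in superovulated donor cows, graded as embryos by morphology, transferred in groups to recipient Holstein heifers and flushed on Day 15. Grade 3 embryos had yielded 3 of the conceptuses (2 male, 1 female) and Grade 1 embryos the other 11. The Grade 1 group held 5 long conceptuses (1 male, 4 female), 5 short ones (2 male, 3 female) and 1 male with no length class. No length class was given for Grade 3 conceptuses. Shared donors and recipients are not marked in the labels, so the p-values measure only the spread between these conceptuses. One short conceptus, replicate 1, is called long in another of its labels.

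IGF1 and IGF2 are secreted growth factors that act mainly through the receptor tyrosine kinase IGF1R. IGF2R, the cation-independent mannose 6-phosphate receptor, does not signal growth but takes up IGF2 for degradation in lysosomes, and in cattle as in mice it is an imprinted gene. IGFBP1 to IGFBP6 bind the factors tightly and hold them away from, or release them to, their receptors, while IGFBP7 binds them weakly and is known for its links to vessels and basement membrane. In ruminants the factors and binding proteins are also secreted into the uterine lumen by the endometrium during the weeks in which the trophoblast elongates.

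Values are log2 expression after RMA, on which a difference of 1 is a doubling; they compare 1 probe set between conceptuses and do not rank genes. The arrays were alike, with medians from 5.62 to 5.716 and pairwise correlations from 0.9838 to 0.9967. Among markers of the conceptus, the 7 trophectoderm markers averaged between 6.16 (KRT8) and 14.53 (IFNT2). The 8 hypoblast markers averaged between 3.60 (TTR) and 12.95 (APOA1), with AFP (3.95) and CUBN (4.45) also low. The 6 endometrial markers averaged between 3.17 (OXTR) and 6.68 (MUC1), on a scale whose lowest value was 2.235. Whether uterine cells were present was not tested.

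**Figure D1:**
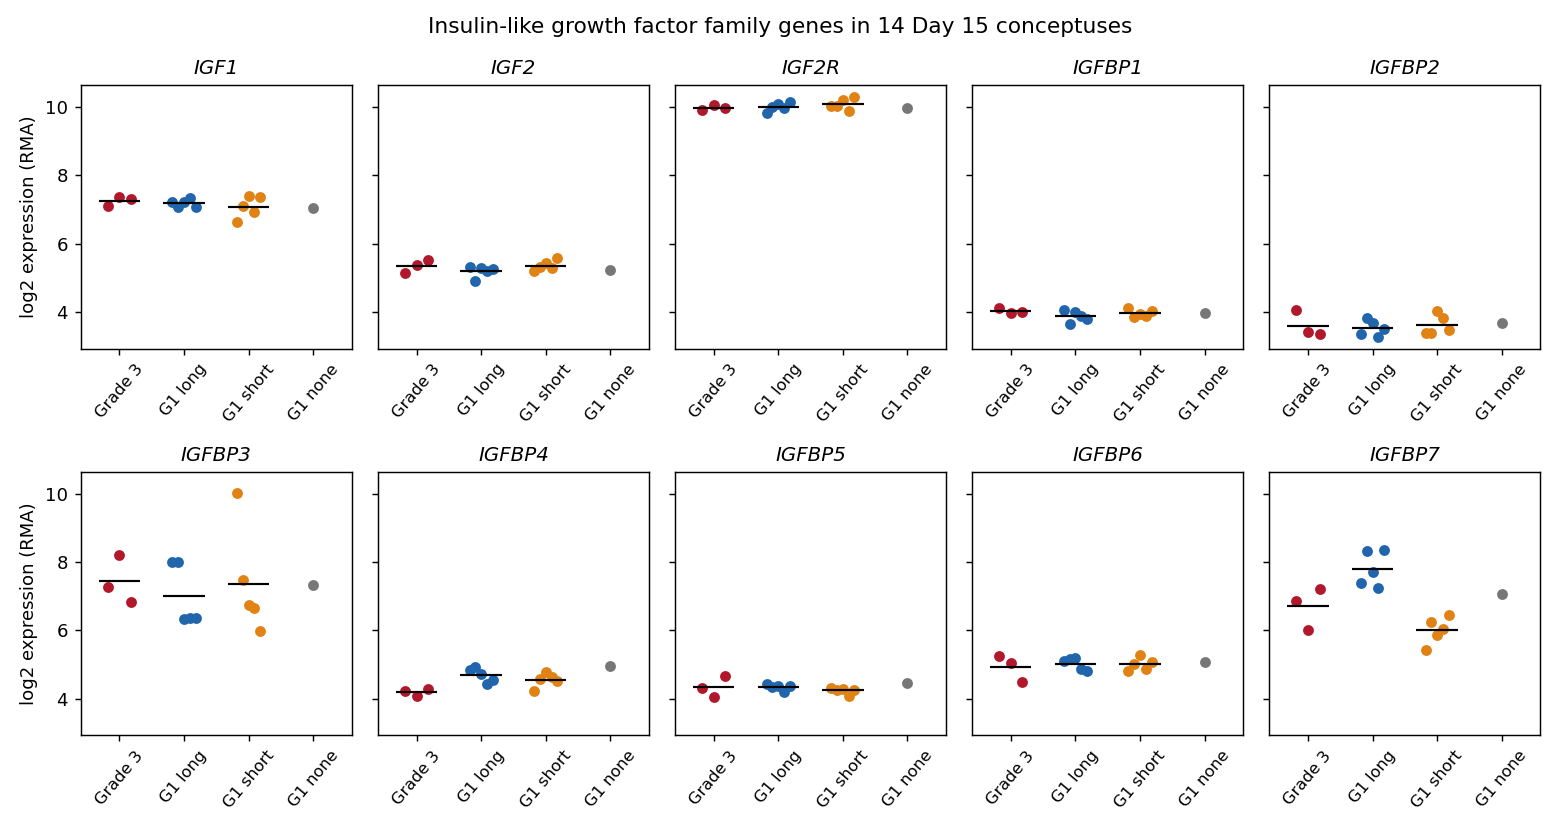
The vertical axis gives log2 expression of the brightest probe set of each gene, on 1 scale for all panels; points are conceptuses from Grade 3, Grade 1 long, Grade 1 short and the Grade 1 conceptus with no length class, and bars are group means. IGFBP7 separates long (7.25 to 8.36) from short (5.43 to 6.44) conceptuses, IGFBP3 spreads widely inside the groups, and the other panels are nearly flat.

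The first comparison asked which members differed with conceptus length, long against short, inside Grade 1. IGFBP7 rose 3.50-fold in long conceptuses, and it was the only member to pass the test. The other 9 genes, the growth factors IGF1 and IGF2 and the receptor IGF2R among them, did not pass. Of the 18 probe sets, 1 passed and 17 did not, where 6.57% of all 24016 probe sets passed in limma after Benjamini-Hochberg adjustment at a threshold of 0.05, 2.7% as higher. At an unadjusted p under 0.05 it was likewise 1 of the 18, against 22% of all probe sets. The 10 genes had a median difference of -0.03 (log2, long minus short), beside -0.03 over the 9155 named genes, with 5 of them higher and 5 lower on average.

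IGFBP7 measured 7.39, 8.33, 7.70, 7.25 and 8.36 in long conceptuses and 5.43, 6.23, 5.87, 6.03 and 6.44 in short ones. Every long value lay above every short one, a separation found in 8.42% of all probe sets. Long conceptuses averaged 7.81 ± 0.52 (SD, n = 5) and short ones 6.00 ± 0.38 (SD, n = 5). The log2 difference was 1.81 ± 0.24 (SE), with a 95% interval of 1.27 to 2.34, or 2.42-fold to 5.07-fold, and limma adjusted p = 0.0086. A two-sided exact permutation test over the 252 splits of the 10 conceptuses gave p = 0.00794, the smallest that 5 against 5 can give. Any probe set without overlap gives this p, so it adds nothing to that separation. In whole conceptuses, a larger share of cells that express the gene and more of its RNA per cell cannot be told apart.

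Titles begin with 1 of 7 prefixes, unexplained in the labels, and 2 of these prefixes hold both long and short conceptuses. Inside prefix 5575 IGFBP7 averaged 7.86 in 2 long conceptuses and was 6.23 in 1 short one, a difference of 1.63. Inside prefix 5594 it was 7.70 in 1 long conceptus and averaged 5.95 in 2 short ones, a difference of 1.75. With the prefix as a fixed block the difference was 1.69 and missed the threshold (limma adjusted p = 0.0697), in a fit that takes the contrast from those 2 prefixes. Counting the conceptus with disagreeing labels as long gave 1.27 (adjusted p = 0.15). That conceptus had the lowest IGFBP7 value of all 14, 5.43.

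Some cell type markers also differed between long and short conceptuses, some of them higher and some lower in long ones. They passed in the same comparison as IGFBP7, so they are not separate evidence about it. Among 7 endothelial markers PECAM1, an adhesion molecule of vessels and platelets, rose by 0.99 ± 0.14 (log2, SE; adjusted p = 0.00902). The brightest probe sets of the other 6 did not pass. The 7 averaged between 2.96 (TEK) and 5.39 (PECAM1), and FLT1, which reached 7.33 on 1 array, differed by 0.31 ± 0.17. The mean of the endothelial list was 4.05 to 4.25 in long and 3.86 to 4.11 in short conceptuses. Of 10 markers of stroma and smooth muscle, TAGLN, which binds actin, rose by 2.31 ± 0.25 and the surface protein THY1 by 0.40 ± 0.11, and the list mean was 4.72 to 4.94 in long and 4.51 to 4.63 in short conceptuses. The genes of that list averaged between 2.72 (LUM) and 8.44 (THY1).

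Of 8 hypoblast markers, 2 rose and none fell: RBP4, which carries retinol, by 1.30 ± 0.24, and APOA1, an apolipoprotein, by 0.59 ± 0.10. Of the others FN1 stood at 0.43 and 5 had negative differences that did not pass, which left the median of the list at -0.10. The hypoblast list mean was 7.82 to 8.03 in long and 7.54 to 7.91 in short conceptuses. By the brightest probe set of each gene, none of 7 trophectoderm or 6 endometrial markers passed. PTGS2 stood at 0.74 ± 0.28, PAG2 at 0.61 ± 0.21 and MUC1 at 0.55 ± 0.20, with adjusted p of 0.149, 0.114 and 0.128, and 1 of the 2 other PTGS2 probe sets passed as higher. The trophectoderm and endometrial lists had means of 11.92 to 12.02 and 4.10 to 4.35 in long conceptuses and of 11.41 to 11.94 and 4.05 to 4.25 in short ones. All 3 epiblast markers had negative differences, of which that of DNMT3B, a DNA methyltransferase, passed at -0.39, and of 7 blood and immune markers CD8A fell by 0.84. The list means were 5.56 to 5.99 and 4.43 to 4.68 in long conceptuses, against 5.94 to 6.44 and 4.65 to 4.97 in short ones. When each conceptus was dropped in turn, THY1 missed the threshold in 9 of 10 fits, DNMT3B in 7 and CD8A in 7. Their adjusted p then reached 0.112 for THY1 (long replicate 2 dropped), and 0.0795 for DNMT3B and 0.0771 for CD8A (long replicate 5 dropped). The part of these cell types in the IGFBP7 difference was not tested.

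Over the 14 arrays, the 3 genes of 9154 whose pattern was most like that of IGFBP7 were CAST, GNPTAB and AHCYL1, with Pearson r of 0.927, 0.926 and 0.907. CAST is calpastatin, the inhibitor of calpain proteases. GNPTAB encodes subunits of the enzyme that starts the mannose 6-phosphate tag of lysosomal enzymes, and AHCYL1 regulates calcium release through the inositol trisphosphate receptor. These correlations describe arrays that share the length groups. In long conceptuses CAST was higher by 0.68, GNPTAB by 0.43 and AHCYL1 by 0.35 (log2), with limma adjusted p of 0.00902, 0.0167 and 0.0167. Because the 3 genes were picked for their likeness to IGFBP7 on these arrays, these differences are not separate evidence.

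**Figure D2:**
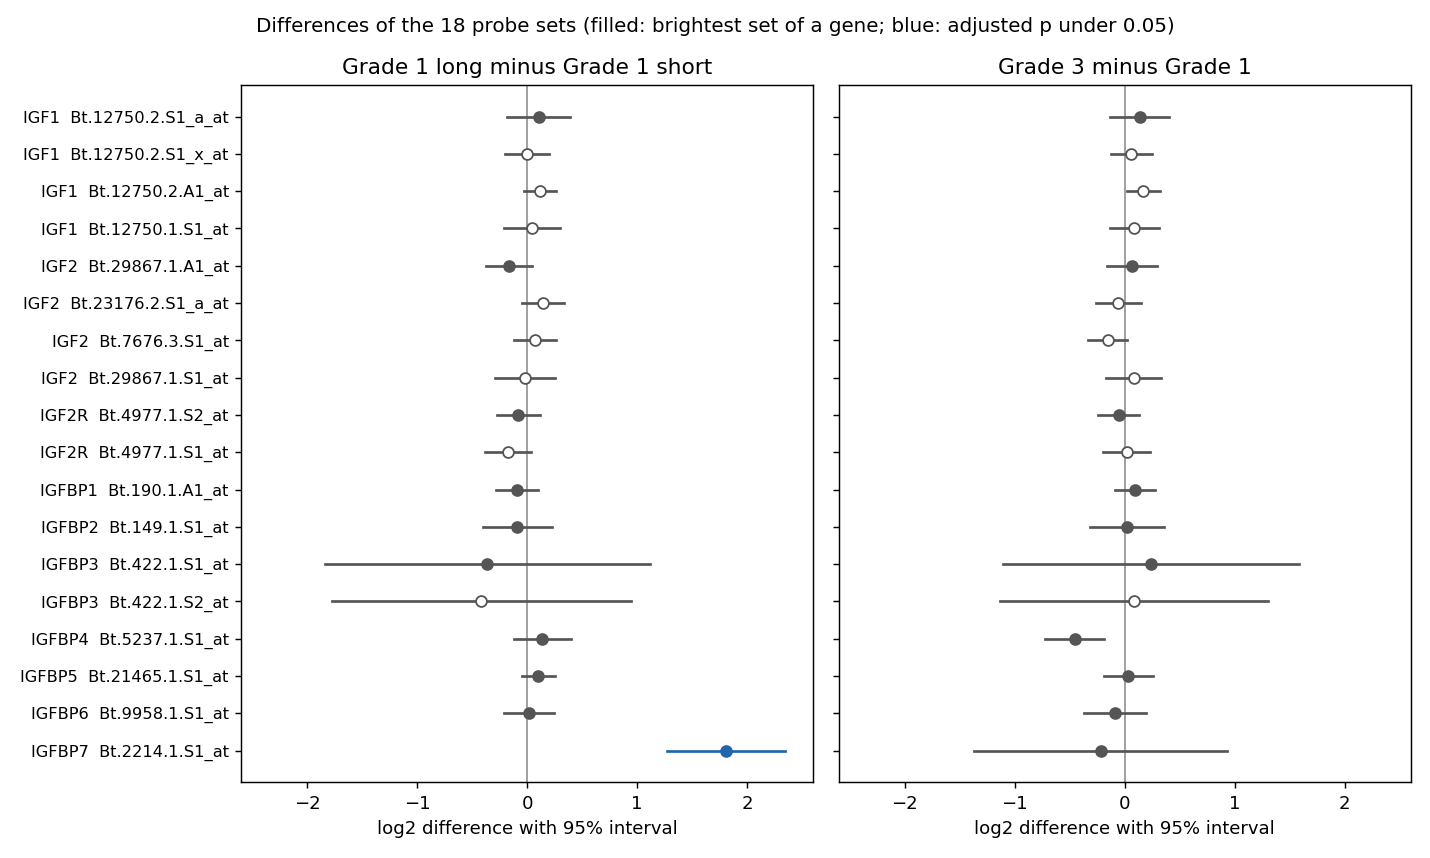
The horizontal axes give the log2 difference with its 95% interval for the 18 probe sets, Grade 1 long minus short on the left and Grade 3 minus Grade 1 on the right; filled points mark the brightest probe set of a gene and blue an adjusted p under 0.05. IGFBP7 at 1.81 is the only blue point, and IGFBP3 has the widest intervals between long and short.

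IGFBP3, the main carrier of the factors in serum and a binding protein with effects of its own on cell growth, varied most of all members without following length. It measured 8.00, 7.99, 6.32, 6.35 and 6.36 in long conceptuses and 10.01, 7.46, 6.74, 6.65 and 5.97 in short ones. By the length class used, the highest and the lowest of all 14 values were thus both short conceptuses, and the groups overlapped throughout. The whole range was 4.04 on the log2 scale, a 16.4-fold span, and the SD over the 14 arrays was larger than that of 99.7% of all probe sets. The log2 difference between long and short was -0.36 ± 0.67 (SE, n = 5 each), with a 95% interval of -1.84 to 1.11 (limma adjusted p = 0.815). This interval leaves room for a change of more than 2-fold in either direction. Without short replicate 1, which had the value of 10.01 and is called long in another of its labels, the difference was 0.30. Counting that conceptus as long gave 0.8 (limma adjusted p = 0.538). The second IGFBP3 probe set gave the same order of conceptuses at the extremes, 9.66 and 6.04, and correlated with the first at r = 0.987 over the 14 arrays.

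The spread of IGFBP3 followed the title prefix. The 4 conceptuses of prefix 5575, which include both lengths and the one with no class, measured 7.33 to 8.00. The 3 of prefix 5594 measured 6.32 to 6.74 and the 2 of prefix 5610 measured 6.35 and 6.36. None of the values from prefixes 5594 and 5610 reached those of prefix 5575. Inside prefix 5575 the long conceptuses were higher than the short one by 0.53, and inside prefix 5594 the long one was lower by 0.37, so the direction differed between the 2 prefixes. The single conceptus of prefix 5563 held the highest value, 10.01, and the single one of prefix 5613 the lowest, 5.97. In the 2 Grade 3 conceptuses of prefix 5604 the values were 8.21 and 6.83, a gap larger than that inside any other prefix. Males averaged 7.82 and females 6.83. Inside prefix 5575 the female measured 7.99 and the males 8.00, 7.46 and 7.33. Inside prefix 5604 the female measured 8.21 and the male 6.83. Each other prefix held a single sex, and most prefixes held few conceptuses. The parts of sex, prefix and single conceptuses in this spread were not tested.

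**Figure D3:**
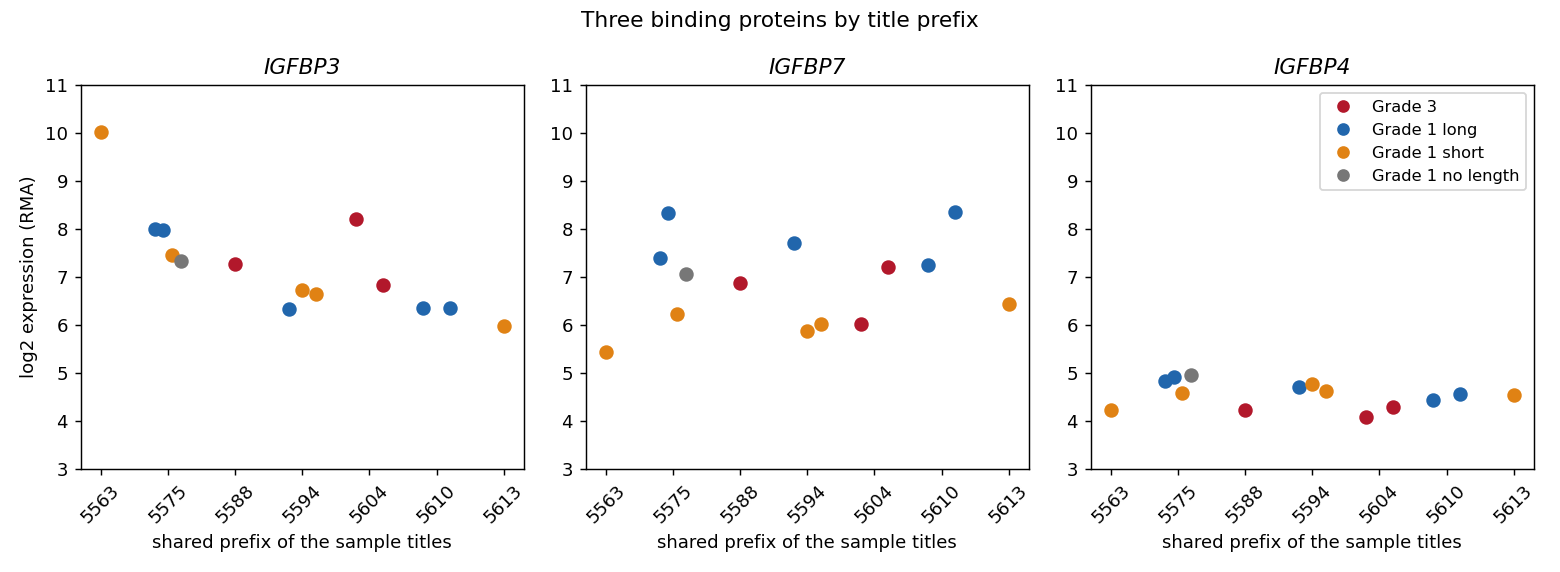
The vertical axes give log2 expression of IGFBP3, IGFBP7 and IGFBP4 and the horizontal axes the prefix shared by sample titles; each point is a conceptus, coloured by group. IGFBP3 lies at 7.33 to 8.00 in prefix 5575 whatever the length, whereas IGFBP7 separates long from short conceptuses inside prefixes 5575 and 5594.

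The growth factors themselves differed little between long and short conceptuses. The brightest IGF1 probe set measured 7.22, 7.06, 7.21, 7.33 and 7.08 in long conceptuses and 6.63, 7.09, 7.38, 6.93 and 7.36 in short ones. The groups overlapped, and the spread was wider among short conceptuses. Its log2 difference was 0.10 ± 0.13 (SE), with a 95% interval of -0.19 to 0.39 (limma adjusted p = 0.716). The other 3 IGF1 probe sets differed by 0.00, 0.11 and 0.05, and the pairwise correlations among the 4 over the arrays lay between 0.239 and 0.605.

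IGF2, the fetal growth factor expressed from the paternal allele in most tissues, was measured by 4 probe sets that did not follow each other. Their pairwise correlations lay between -0.256 and 0.37 over the 14 arrays. The brightest measured 5.32, 4.91, 5.28, 5.21 and 5.27 in long conceptuses and 5.19, 5.31, 5.44, 5.30 and 5.57 in short ones, with overlap between the groups. Its difference was -0.16 ± 0.10 (log2, SE; adjusted p = 0.358). The other 3 stood at 0.14, 0.07 and -0.02, so the sign depended on the probe set and none passed. All 4 averaged between 4.48 and 5.29, and 45.4% of all probe sets were dimmer than the brightest of them.

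IGF2R, the scavenger of IGF2, was even across conceptuses, with means of 10.02 and 6.92 for its 2 probe sets over the 14 arrays. Its brightest probe set measured 9.82, 10.01, 10.08, 9.96 and 10.13 in long conceptuses and 10.01, 10.02, 10.21, 9.88 and 10.29 in short ones. The ranges overlapped, and the short values 10.21 and 10.29 lay above every long one. The log2 difference was -0.08 ± 0.09 (SE), with a 95% interval of -0.28 to 0.12 (adjusted p = 0.665), and the second probe set gave -0.17 ± 0.10. The 2 probe sets correlated at r = 0.818.

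The remaining binding proteins averaged between 3.59 (IGFBP2) and 5.01 (IGFBP6) over the 14 arrays, and none passed between long and short conceptuses. IGFBP1, which in sheep stimulates migration and attachment of trophectoderm cells, measured 3.65 to 4.07 in long and 3.85 to 4.13 in short conceptuses, a log2 difference of -0.09 ± 0.09 (SE). IGFBP2, an abundant binding protein of fetal fluids, measured 3.28 to 3.83 in long and 3.38 to 4.02 in short conceptuses (-0.09 ± 0.14). IGFBP4, an inhibitor of IGF action that is cleaved by the protease PAPPA, measured 4.43 to 4.92 in long and 4.22 to 4.78 in short conceptuses (0.14 ± 0.12). These ranges overlapped for each of the 3 genes.

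IGFBP5, which also binds extracellular matrix, measured 4.19 to 4.43 in long and 4.08 to 4.33 in short conceptuses (0.10 ± 0.07). IGFBP6, which prefers IGF2 over IGF1, measured 4.82 to 5.19 in long and 4.81 to 5.28 in short conceptuses (0.01 ± 0.10). The lowest adjusted p among the 17 probe sets that did not pass was 0.33. In the RefSeq gene order IGFBP1 lies next to IGFBP3, and IGFBP2 next to IGFBP5, with 0 protein-coding genes between them.

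The second comparison set the Grade 3 conceptuses against all 11 from Grade 1 embryos. None of the 10 genes passed, and 0 of 24016 probe sets passed in limma (0%), whose smallest adjusted p over all probe sets was 0.611. At an unadjusted p under 0.05, 2 of the 18 member probe sets qualified, where 5.06% of all probe sets did. No member probe set separated the groups without overlap, as 0.554% of all did. The 2 that qualified were the IGFBP4 probe set and 1 of the 4 IGF1 probe sets, and the exact permutation test, also unadjusted, gave the same 2. The median difference of the 10 genes was 0.03 (log2, Grade 3 minus Grade 1), beside -0.0019 over all named genes.

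IGFBP4 measured 4.22, 4.08 and 4.28 in Grade 3 conceptuses, against 4.22 to 4.96 with a median of 4.63 in Grade 1. All 3 Grade 3 values lay at the low end, and only 1 Grade 1 conceptus, short replicate 1 at 4.22, reached into their range. Grade 3 conceptuses averaged 4.19 ± 0.11 (SD, n = 3), against 4.65 ± 0.22 (SD, n = 11) for Grade 1. The log2 difference was -0.46 ± 0.13 (SE), with a 95% interval of -0.72 to -0.19. It did not pass over all probe sets (limma adjusted p = 0.811; two-sided exact permutation p = 0.00824 before any adjustment, over 364 splits). With 1 conceptus left out in turn, it stayed between -0.50 and -0.40. Prefixes 5588 and 5604 held Grade 3 conceptuses only and the others Grade 1 only. Prefix and grade therefore cannot be told apart for this gene or any other, in each comparison with Grade 3. None of the cell type markers passed in this comparison, nor did any of all 24016 probe sets.

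The IGF1 probe set that qualified was a dim one, at 3.87, 3.93 and 4.05 in Grade 3 and 3.56 to 3.92 in Grade 1, a difference of 0.17 ± 0.07 (log2, SE; limma adjusted p = 0.966). The brightest IGF1 probe set stood at 0.14 ± 0.13, with 7.11, 7.36 and 7.30 in Grade 3 against 6.63 to 7.38 in Grade 1. For IGF2 the brightest probe set measured 5.13, 5.36 and 5.54 in Grade 3 and 4.91 to 5.57 in Grade 1, a difference of 0.07 ± 0.11, and 2 of the other 3 had the opposite sign. IGF2R measured 9.89, 10.06 and 9.98 in Grade 3 and 9.82 to 10.29 in Grade 1 (-0.06 ± 0.09). All Grade 3 values of these brightest sets fell inside the Grade 1 range.

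IGFBP3 measured 7.28, 8.21 and 6.83 in Grade 3, against 5.97 to 10.01 in Grade 1, a difference of 0.24 ± 0.63 (log2, SE). IGFBP7 measured 6.87, 6.02 and 7.21 in Grade 3 and 5.43 to 8.36 in Grade 1, a difference of -0.22 ± 0.54. The Grade 1 values of IGFBP7 include the long and the short class. IGFBP1, IGFBP2, IGFBP5 and IGFBP6 differed by 0.10, 0.02, 0.03 and -0.09. In Grade 3, IGFBP5 ranged from 4.04 to 4.68 and IGFBP6 from 4.50 to 5.26, both wider than among the 11 Grade 1 conceptuses (4.08 to 4.46 and 4.81 to 5.28).

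Grade 3 was also set against each Grade 1 length class, in a fit with a mean for each group. Both comparisons use the same Grade 3 conceptuses, whose title prefixes hold no Grade 1 conceptus. Against long conceptuses 0 of the 18 probe sets passed in limma, as did 0 of all 24016 (0%); 2 had an unadjusted p under 0.05 (9.06% of all did), those of IGFBP4 and IGFBP7. IGFBP7 averaged 6.70 ± 0.61 (SD, n = 3) in Grade 3, against 7.81 ± 0.52 (SD, n = 5) in long conceptuses, a log2 difference of -1.11 ± 0.31 (SE; adjusted p = 0.351), and the highest Grade 3 value, 7.21, lay below the lowest long one, 7.25. IGFBP4 differed by -0.49 ± 0.13 (adjusted p = 0.307), again without overlap. In all, 3 of the 18 probe sets did not overlap, where 7.14% of all probe sets did not; the third was an IGF2 set at -0.19 ± 0.09.

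Against short conceptuses 0 of 18 and 0 of 24016 passed in limma (0%), and 3 had an unadjusted p under 0.05 (10.6% of all did). IGFBP7 was 6.70 in Grade 3 and 6.00 ± 0.38 (SD, n = 5) in short conceptuses, a difference of 0.70 ± 0.31 (log2, SE; adjusted p = 0.449), with overlap. IGFBP4 differed by -0.36 ± 0.13 (adjusted p = 0.364), and the dim IGF1 set by 0.23 ± 0.08 (adjusted p = 0.341). That IGF1 set was the only one of the 18 without overlap (6.08% of all). By mean, IGFBP7 was thus highest in long conceptuses, followed by the conceptus with no length class at 7.06, Grade 3 at 6.70 and short conceptuses at 6.00. In that order only the long and the short class differed past the test.

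Receptors, intracellular genes of the pathway and related genes were examined as lists, 60 genes in all. Between long and short conceptuses 0 rose, 1 fell and 59 did not pass, with a median difference of -0.02 (log2); of all probe sets 2.7% were called higher and 3.87% lower. The gene that fell was EIF4EBP1, the repressor of cap-dependent translation that mTOR inactivates. It measured 8.29 to 8.91 with a median of 8.71 in long and 8.93 to 9.23 with a median of 9.04 in short conceptuses. The difference was -0.40 ± 0.11 (SE, limma adjusted p = 0.0462). Dropping each conceptus in turn, it missed the threshold in 9 of 10 fits (adjusted p as high as 0.0996, short replicate 4 dropped) and passed only when long replicate 3 was dropped (0.0326).

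Of 6 receptors none passed. IGF1R, the signalling receptor, measured 5.13 to 5.37 in long and 5.10 to 5.54 in short conceptuses (-0.10 ± 0.09, log2, SE). The insulin receptor INSR measured 4.52 to 4.69 in long and 4.37 to 4.87 in short conceptuses (-0.03 ± 0.10). CD93, an endothelial receptor that binds IGFBP7, measured 4.29 to 4.44 in long and 3.92 to 4.41 in short conceptuses, a difference of 0.18 ± 0.08 (adjusted p = 0.249).

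None of 12 adaptor and PI3K-AKT genes passed, nor any of 18 proteases and partners of the binding proteins. A list of 10 genes, drawn as IGF2 messenger and locus regulators, was mixed and also held none that passed. It contained IGF2BP1, IGF2BP3, CTCF, PLAGL1, INS, GHR, STAT5B, CCN1, CCN2 and CCN5, not all of which regulate IGF2. The median differences of these lists were -0.02, -0.03 and -0.03. PAPPA, the protease that cleaves IGFBP4, differed by -0.11 ± 0.08 between long and short. PLAU, the urokinase-type plasminogen activator, also spread widely, over 10.06 to 11.45 in long and 9.24 to 13.05 in short conceptuses (-0.57 ± 0.62). IGF2BP3 and IGF2BP1, which bind IGF2 messenger RNA, stood at 0.19 ± 0.06 and -0.18 ± 0.06 with adjusted p of 0.0689 and 0.111. MAPK3, the kinase ERK1, stood at -0.22 ± 0.06 (adjusted p = 0.0704). For Grade 3 against Grade 1, and against either length class, 0 of the 60 genes passed. In those comparisons 0 of all 24016 probe sets passed (0%), so no list could hold a gene that passed.

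**Figure D4:**
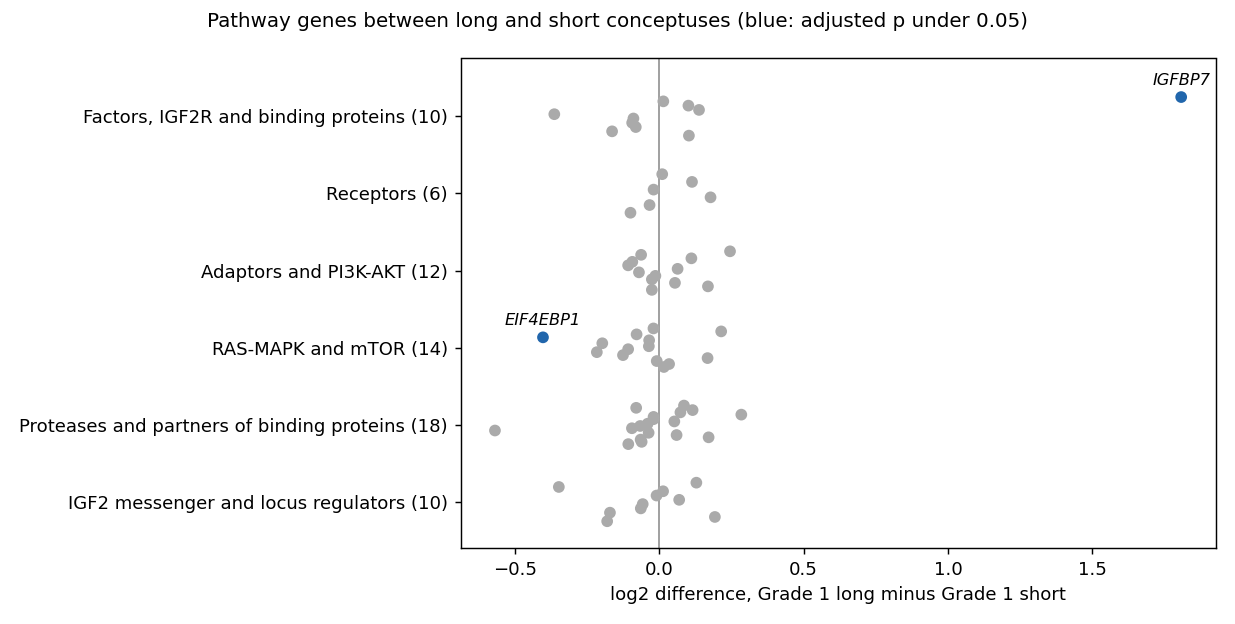
The horizontal axis gives the log2 difference, Grade 1 long minus short, of each gene's brightest probe set; rows are gene lists with the number measured, and blue points passed at adjusted p under 0.05. IGFBP7 at 1.81 and EIF4EBP1 at -0.40 are the blue points, and the other genes lie within 0.57 of 0.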

How the data were processed

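The deposited values are log2 expression per probe set. Per the submitters' processing notes, the authors used Expression Console and RMA. Software versions, and whether all arrays were normalised as 1 set, are not stated in the labels. RMA quantile-normalises arrays and compresses differences at low signal. The precision is limited by how many arrays there are. The 95% interval reached 0.198 (log2) to each side at the median probe set between lengths and 0.21 between grades.

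The 112 control probe sets were left out. Symbols came from the platform annotation; all 10 genes matched RefSeq (ARS-UCD2.0) by Entrez number. The probe set with the highest mean stands for a gene, and all 18 are reported. Differences were tested with limma 3.58.1 in R 4.3.3, two-sided, with Benjamini-Hochberg adjustment over 24016 probe sets; the fits were tested on simulated data. The length characteristic decided groups where labels disagreed. The study's design names 4 Grade 1 conceptuses for its grade comparison without identifying them, so all 11 were used. Members and gene lists were chosen with earlier results of these data known. By rule, all members, pathway genes past the threshold and the 3 genes most correlated with a called member are named; other genes were named for their role or spread after their values were seen. No sequences were used here.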

Additional observations from a re-analysis of the deposited data

Results flagged for a closer look

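Each probe set was checked for a conceptus far from the other 4 of its length class. The rule was a Dixon ratio above 0.71, the gap to the nearest value over the range of the 5 values. This made 36 checks in all, of which chance alone gives about 1 in 20. There were 4 such values. In long conceptuses, the brightest IGF2 probe set was lowest in replicate 2 at 4.91, with the next value at 5.21. Among short conceptuses, another IGF2 set was highest in replicate 3 at 5.46, with the next at 5.14. Replicate 4 of the short class was lowest for IGFBP5 at 4.08 (next 4.27) and for a dim IGF1 set at 3.56 (next 3.74). IGFBP3 and IGFBP7 held no value past this ratio. For IGFBP3, short replicate 1 at 10.01 still lay far above the next value, 7.46, in a class whose other values also spread widely.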

How the results depend on the processing

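The IGFBP7 difference between long and short conceptuses ranged from 1.665 to 1.946 with 1 conceptus left out and passed in each of those fits (limma adjusted p up to 0.0258). It fell to 1.691 with a fixed block for title prefix and to 1.269 with the conceptus of disagreeing labels as long, where 0 members passed; adding sex, recentring, renormalising, dropping dim probe sets, a trended prior, a random prefix block and a fit of all 14 arrays kept the call. In the grade comparisons 0 members passed under limma in any setting run.

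Over all probe sets, 648 higher and 929 lower became 64 and 48 with the fixed prefix block, 270 and 222 with the conceptus of disagreeing labels as long, 963 and 1440 with sex, and 213 to 723 higher and 247 to 974 lower with 1 conceptus left out. The counts dropped to 296 and 359 without long replicate 1, 236 and 296 without long 2, 403 and 511 without long 4, 234 and 276 without long 5, 213 and 247 without short 4, and 327 and 377 without short 5. Against long conceptuses, Grade 3 with sex as a covariate had 8 higher and 41 lower, against 0 and 0; leaving out 1 conceptus gave 0 to 1 higher and 0 lower. Against short ones it gave 0 to 1 and 0 to 3, and against all Grade 1 conceptuses 0 to 1 each way.

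Directions of uncalled members turned as follows. Between lengths, IGFBP3 was 0.01 with sex, 0.08 with the fixed prefix block and 0.8 with the relabelled conceptus, which also gave -0.101 for IGF1, -0.023 for IGFBP4 and -0.073 for IGFBP6; IGFBP6 was -0.004 with arrays centred and IGFBP1 0.042 with the fixed block. Other probe sets gave -0.001 for IGF1 and 0.142 and 0.068 for IGF2. For grade, sex gave -0.065 for IGFBP3 and -0.018 for IGFBP5, renormalisation -0.001 for IGFBP2, and other probe sets -0.06 and -0.155 for IGF2 and 0.017 for IGF2R. Against long conceptuses, sex gave 0.047 for IGF2R and -0.083 for IGFBP3; against short ones, sex gave 0.028 for IGFBP2 and -0.224 for IGFBP3, and the random prefix block 0.019 for IGFBP2. The cause of these changes was not tested.

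With 1 conceptus left out, uncalled members changed sign in 1 to 5 fits for several genes. Between lengths the ranges were -0.009 to 0.18 for IGF1, -0.163 to 0.012 for IGFBP2, -0.711 to 0.298 for IGFBP3 and -0.036 to 0.081 for IGFBP6. For grade they were -0.028 to 0.175 for IGF2, -0.2 to 0.147 for IGFBP2, -0.145 to 0.545 for IGFBP3, -0.135 to 0.184 for IGFBP5, -0.25 to 0.131 for IGFBP6 and -0.472 to 0.123 for IGFBP7. Against long conceptuses they were -0.068 to 0.019 for IGF2R, -0.146 to 0.201 for IGFBP2, -0.171 to 0.148 for IGFBP5 and -0.253 to 0.127 for IGFBP6. Against short ones they were -0.115 to 0.088 for IGF2, -0.235 to 0.112 for IGFBP2, -0.314 to 0.733 for IGFBP3, -0.07 to 0.25 for IGFBP5 and -0.239 to 0.142 for IGFBP6.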

Other observations

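IGFBP3 differed between title prefixes more than most genes did, a pattern picked out after its values were seen. Differences between the 7 prefixes held 90.3% of the variance of its brightest probe set and 91.3% of that of the other, beside a median of 53.1% over all probe sets. Only 4 prefixes hold more than 1 conceptus, and a prefix with a single conceptus adds to the share by construction. IGFBP4 came next among the members with 87.9%, and IGFBP7 stood at 47.3%.

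The genes whose pattern over the 14 arrays was most like that of IGFBP3 were TNFRSF12A, the receptor of the cytokine TWEAK, RNF39 and PARD6B, a cell polarity protein, with Pearson r of 0.909, 0.898 and 0.853. Among the members, IGFBP3 and IGF1 correlated at -0.608, a pair picked out after the values were seen. IGFBP2 and IGFBP6 correlated at 0.625. The highest IGFBP3 value and the lowest IGF1 value, 10.01 and 6.63, came from the same short conceptus, replicate 1, whose labels disagree on length. That conceptus also held the lowest IGFBP7 value and the lowest Grade 1 value of IGFBP4.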
